A study of Arabidopsis thaliana with 16 samples.

Results

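Control seedlings of Arabidopsis thaliana that went through a period of 3 d were compared with controls that went through 1 d. The comparison uses 6 of the 16 libraries of the series. The columns moc_3d replicates 1, 2 and 4 stand against moc_1d replicates 2, 3 and 4. Whole seedlings grew on agar plates under long days, and the series otherwise tests ethanol vapour, labelled EtOH, over the same periods. Both groups compared carry the treatment label moc where the others carry EtOH. The labels do not spell moc out, and it is read here as the control without ethanol. The periods began at an age of 11 d for 3 d and 13 d for 1 d, so both groups reached a nominal age of 14 d. Period and starting age change together and cannot be told apart. The labels name no genotype, and do not say whether the replicates came from different plates, and the p-values therefore reflect the spread among these libraries alone. In whole seedlings, fewer cells of a type and less RNA per cell cannot be told apart.

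The columns moc_1d replicate 1 and moc_3d replicate 3 hold identical counts under labels of opposite groups, so both were left out. The sources used here do not settle which label holds, and the result depends on it. With both left out, edgeR's quasi-likelihood test called 155 of 18419 genes between the control groups (adjusted p under 0.05), 97 higher at 3 d and 58 lower. With the library counted as 1 sample of moc_3d, 176 genes were called, and 126 of the 155 were among them. Counted as 1 sample of moc_1d, 19 were called, and with all 16 columns as labelled 5, in both cases all among the 155. Of 59 called genes named below, 52 kept their call with the library as moc_3d and 11 with it as moc_1d.

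Total counts ran from 6056980 to 11458250 in moc_1d and from 5407735 to 7696919 in moc_3d. A count of 3 equals 0.262 to 0.555 CPM in the control libraries, where CPM are library-size-scaled counts (TMM). The first principal component of the 6 controls held 29.6% of the variance. On it moc_3d replicate 1 lay at 36.1, and replicates 2 and 4 at 4.24 and 2.01. For moc_1d replicates 2, 3 and 4 the values were -9.28, -4.78 and -28.3, so moc_1d replicate 4 also lay apart from its group. Results that rest on moc_3d replicate 1 are given with and without it. Without it 67 genes were called, 65 of them among the 155. The other leave-outs gave 74 without moc_1d replicate 2, 104 without replicate 3 and 85 without replicate 4. Without moc_3d replicates 2 and 4 the counts were 131 and 134.

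Among 30 gene lists, the one with the most members that rose held genes switched on when plants run short of sulfur. The aquaporin list had the most members that fell. These lists were chosen with earlier results of these data known and hold 32 of the 155 called genes, so other groups of genes were not ranked. Chloroplast-encoded genes, counted apart from the lists, had 4 of 86 that fell and a median log2 fold change of -0.324. On the nitrate list, RFNR2 and FD3 of plastid electron transfer rose, while the nitrate reductase NIA2 fell. Single genes of jasmonate synthesis and signalling and of sugar starvation rose, and SAUR6 and the expansin EXPA1 fell. Most changes were small. The median absolute log2 fold change of the 155 genes was 0.537, and 27 genes reached 1 or more. The called genes made up 0.842% of the genes tested, 0.527% higher and 0.315% lower. The groups did not overlap for 152 of the 155, as for 15.7% of all genes tested. An unadjusted p under 0.05 was reached by 1720 genes.

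Plants take up sulfate through SULTR transporters, and APS reductases (APR) carry out the key reducing step that leads to cysteine. Under sulfur limitation, and when the cysteine precursor O-acetylserine builds up, a conserved set of genes rises that includes the LSU and SDI genes. The LSU genes encode small proteins named for their response to low sulfur. SDI1 and SDI2 are sulfur deficiency-induced proteins, of which SDI1 is known to restrain glucosinolate synthesis.

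Of 15 genes on the sulfur limitation list, all tested, 10 rose and none fell, where 0.527% of all genes rose. The list's median log2 fold change was 0.546, beside -0.00185 over all genes. The groups did not overlap for 12 members, all higher at 3 d, as for 8.03% of all genes. The list's summed level was 330.1, 327.8 and 338.8 CPM at 1 d and 535.5, 464.4 and 465.2 CPM at 3 d. All 3 libraries of 3 d thus stood above all 3 of 1 d. Leaving out 1 library left 7 members called without moc_3d replicate 1, 6 without moc_1d replicate 2, 6 without moc_1d replicate 3 and 8 in each other case. With the identical library counted as moc_1d, or under both labels, none of the 15 was called, at medians of 0.412 and 0.431. Counted as moc_3d, 10 were called.

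LSU3 (AT3G49570) had 6.48, 6.70 and 5.74 CPM in moc_1d replicates 2, 3 and 4, and 24.3, 12.9 and 13.7 CPM in moc_3d replicates 1, 2 and 4. Every 3 d value was well above every 1 d value, with replicate 1 the highest. The log2 fold change was 1.39 ± 0.21 (SE), with an adjusted p of 5.55e-05 in edgeR. Its neighbour LSU1 (AT3G49580) had 11.5, 8.97 and 7.38 CPM at 1 d and 27.6, 16.9 and 16.3 CPM at 3 d. It rose by 1.07 ± 0.20 (adjusted p = 0.00149), again without overlap. Both lie on the minus strand of chromosome 3, at 18372404 to 18373147 and 18374908 to 18375940 of the TAIR10.1 annotation. LSU2 (AT5G24660) had 21.3, 21.8 and 23.3 CPM at 1 d and 46.5, 34.6 and 28.1 CPM at 3 d, a rise of 0.71 ± 0.16 (adjusted p = 0.0218). The LSU2 call ended without moc_1d replicate 2, 3 or 4 (adjusted p = 0.153, 0.113 and 0.0818) and without moc_3d replicate 1 or 2 (0.163 and 0.0549). LSU4, next to LSU2 on chromosome 5, had 1.03 to 2.98 CPM in the 6 libraries, with overlapping groups and a log2 fold change of 0.25 ± 0.47 (adjusted p = 0.926). LSU2 and LSU4 were named after their values were seen, as was LSU1.

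SDI1 (AT5G48850) had 3.42, 3.40 and 4.92 CPM at 1 d and 6.95, 8.44 and 10.9 CPM at 3 d. The groups did not overlap, and here moc_3d replicate 1 was the lowest of the 3 d libraries. It rose by 1.21 ± 0.26 (adjusted p = 0.00842). The call ended without moc_1d replicate 2 or 3 (adjusted p = 0.0962 and 0.0729) and without moc_3d replicate 4 (0.106). SDI2 (AT1G04770) rose by 0.78 ± 0.12 (adjusted p = 8.92e-05), from 22.9, 25.9 and 22.5 CPM to 43.9, 45.5 and 33.5 CPM. GGCT2;1 (AT5G26220), a cytosolic enzyme that breaks down glutathione, rose by 1.11 ± 0.21 (adjusted p = 0.00141), from 5.87, 5.26 and 3.77 CPM to 11.3, 9.96 and 11.6 CPM. Both were higher in each 3 d library than in any 1 d library.

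The 3 APS reductase genes rose together by smaller steps. APR1 (AT4G04610) had 43.3, 56.6 and 59.2 CPM at 1 d and 86.5, 73.8 and 71.1 CPM at 3 d (log2 fold change 0.55 ± 0.10, adjusted p = 0.0013). APR3 rose by 0.43 ± 0.08 (adjusted p = 0.00135) from 65.7 ± 3.9 to 88.1 ± 5.9 CPM (SD, n = 3 per group). APR2 rose by 0.39 ± 0.08 (adjusted p = 0.00496) from 74.4 ± 6.3 to 97.5 ± 6.6 CPM (SD, n = 3 per group). None of the 3 overlapped between groups. The APR1 call ended without moc_1d replicate 2 (adjusted p = 0.0528), and the APR2 call ended without moc_1d replicate 3 (0.11) and without moc_3d replicate 1 (0.0856). SULTR1;2, a high-affinity sulfate transporter of the root, rose by 0.37 ± 0.10, from 46.2, 48.2 and 43.3 CPM to 58.5, 61.6 and 58.5 CPM. Its adjusted p was 0.0499, and the call ended without any 1 of the 6 libraries (adjusted p = 0.0921 to 0.249). APR2 and SULTR1;2 were named after their values were seen. APR1, APR2, APR3 and SDI2 each overlap a counted gene on the opposite strand, and the sources used here do not state how the counting treated strand.

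The 5 list members without a call differed among themselves. The serine hydroxymethyltransferase SHM7 (0.63 ± 0.17, adjusted p = 0.0603) and the vacuolar sulfate exporter SULTR4;2 (0.46 ± 0.21, adjusted p = 0.477) were higher in each 3 d library than in any of 1 d. LSU4, the transporter SULTR1;1 (-0.04 ± 0.58, adjusted p = 0.992) and the glucosidase BGLU28 (-0.17 ± 0.43, adjusted p = 0.949) overlapped between groups. Their highest value in any control library was 2.98 CPM, so few counts stand behind them. Outside the list, SERAT2;1, which makes O-acetylserine, fell by 0.39 ± 0.10 on the log2 scale (adjusted p = 0.0433), from 53.3 ± 0.73 to 40.5 ± 5.1 CPM (SD, n = 3 per group). That call ended without moc_1d replicates 2, 3 or 4 (adjusted p = 0.14, 0.114 and 0.137) or moc_3d replicates 1 or 2 (0.356 and 0.0995). SERAT2;1 and these 5 members were named after their values were seen. Of 24 glucosinolate genes, the pathway that SDI1 restrains, none was called by edgeR, DESeq2 or limma-voom, and 2 were higher at an unadjusted p under 0.05. Their median log2 fold change was -0.0121.

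**Figure D1:**
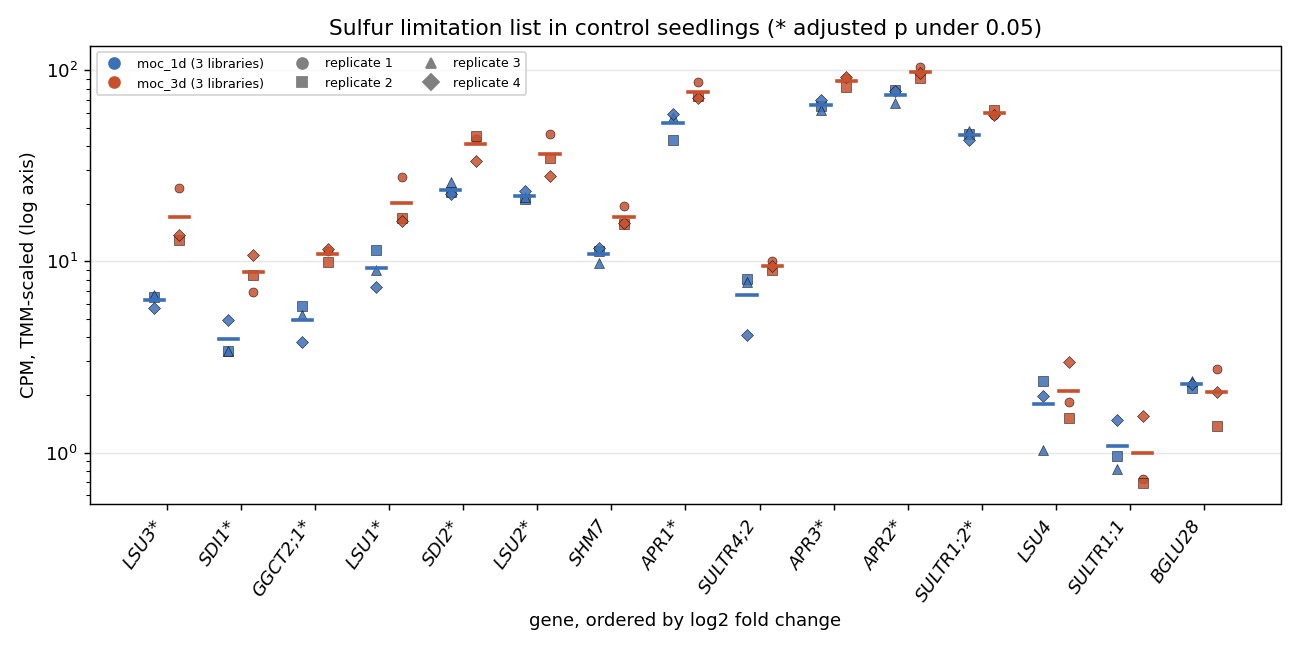
CPM of the 15 genes of the sulfur limitation list in each control library, on a log axis, with blue for moc_1d, orange for moc_3d, marker shapes for replicate numbers and bars for group means of 3 libraries. The 10 starred genes passed the test, and LSU3, with 24.3, 12.9 and 13.7 CPM at 3 d against 5.74 to 6.70 at 1 d, shows the widest gap.

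The 300 bases before the annotated starts of LSU3 and SDI1, which showed the largest rises of the list, are printed to show what lies upstream of these co-rising genes. They come from the TAIR10.1 assembly of RefSeq, on the minus strand, and are written 5′ to 3′ along the gene. The LSU3 window is chr3:18373148-18373447 and the SDI1 window chr5:19807854-19808153. Capitals mark CACGTG, the G-box core, in LSU3 and GAGAC or its reverse complement GTCTC, the core of a sulfur-responsive element, in SDI1.
LSU3: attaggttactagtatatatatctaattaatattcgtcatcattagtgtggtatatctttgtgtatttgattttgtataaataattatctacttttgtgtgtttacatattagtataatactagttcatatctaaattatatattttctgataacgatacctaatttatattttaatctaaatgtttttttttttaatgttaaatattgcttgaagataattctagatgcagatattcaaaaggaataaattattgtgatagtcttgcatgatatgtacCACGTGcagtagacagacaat
SDI1: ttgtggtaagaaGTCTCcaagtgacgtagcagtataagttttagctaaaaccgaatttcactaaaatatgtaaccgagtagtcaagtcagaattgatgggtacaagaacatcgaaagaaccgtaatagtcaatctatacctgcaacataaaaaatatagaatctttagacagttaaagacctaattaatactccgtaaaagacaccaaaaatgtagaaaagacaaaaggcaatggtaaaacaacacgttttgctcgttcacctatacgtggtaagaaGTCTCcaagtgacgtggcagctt
Searched on both strands, GAGAC was found in 4 of 15 windows of the sulfur list (26.7%), beside 29.4% of 18244 windows of tested genes. The list's share was thus no higher than that of all genes. This motif was added after the data were seen. SDI1 holds 2 copies. CACGTG was found in 1 of the 15 windows, that of LSU3, and in 7.96% of all windows. A match is a description of letters, not a binding site.

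Aquaporins are channels that pass water across membranes, the PIP proteins mainly in the plasma membrane and the TIP proteins in that of the vacuole. Of 18 aquaporin genes, all tested, 6 fell and none rose, where 0.315% of all genes fell. The median log2 fold change was -0.211, with 16 members negative, beside 9284 of all 18419 genes. For 12 members all 3 d libraries were below all 1 d libraries, as for 7.66% of all genes. The summed level was 7329, 7143 and 7459 CPM at 1 d and 5951, 6300 and 6033 CPM at 3 d. The 3 d and 1 d sums did not overlap. None of the 18 log2 fold changes was below -0.51.

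The vacuolar channel TIP2;1 (AT3G16240) had 1003.8, 985.5 and 1002.4 CPM at 1 d and 649, 787 and 670.3 CPM at 3 d. The 1 d libraries were close together, and all 3 of 3 d lay below them. It fell by 0.51 ± 0.07 on the log2 scale (adjusted p = 6.15e-06). TIP2;1 overlaps a counted gene on the opposite strand. PIP1;5 (AT4G23400) fell by 0.46 ± 0.07 (adjusted p = 3.44e-05), from 207, 210 and 195 CPM to 143, 159 and 143 CPM. With FD3 and GLN1;2, it was 1 of 3 among the 59 named calls that held under each of the 16 other settings tried. TIP1;2 fell by 0.30 ± 0.06 (adjusted p = 0.00209), from 1698, 1712 and 1816 CPM to 1402, 1408 and 1435 CPM. These 3 channels kept their call with any 1 control library left out.

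The other 3 calls were less firm. PIP2;6 fell by 0.28 ± 0.06 (adjusted p = 0.0134) and lost its call without moc_1d replicates 3 or 4 (adjusted p = 0.0671 and 0.0929) or moc_3d replicates 1 or 4 (0.0881 and 0.0972). PIP2;1 fell by 0.26 ± 0.06 (adjusted p = 0.0341) from 716 ± 8.3 to 600.0 ± 11 CPM (SD, n = 3 per group). For PIP2;1 the call ended without any 1 of the 6 libraries (adjusted p = 0.0674 to 0.162). TIP1;1, named after its values were seen, fell by 0.26 ± 0.07 (adjusted p = 0.0454). It lost its call without moc_1d replicates 2 or 4 (adjusted p = 0.0874 and 0.471) or moc_3d replicates 1 or 4 (0.447 and 0.0691). Over the list, leaving out 1 library left 3 calls without moc_1d replicate 4, moc_3d replicate 1 or moc_3d replicate 4, and 4 to 5 otherwise. With the identical library as moc_1d, 3 members were called, and with all 16 columns 1 was. The 12 members without a call had log2 fold changes from -0.50 for TIP2;3 to 0.06 for PIP2;5.

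**Figure D2:**
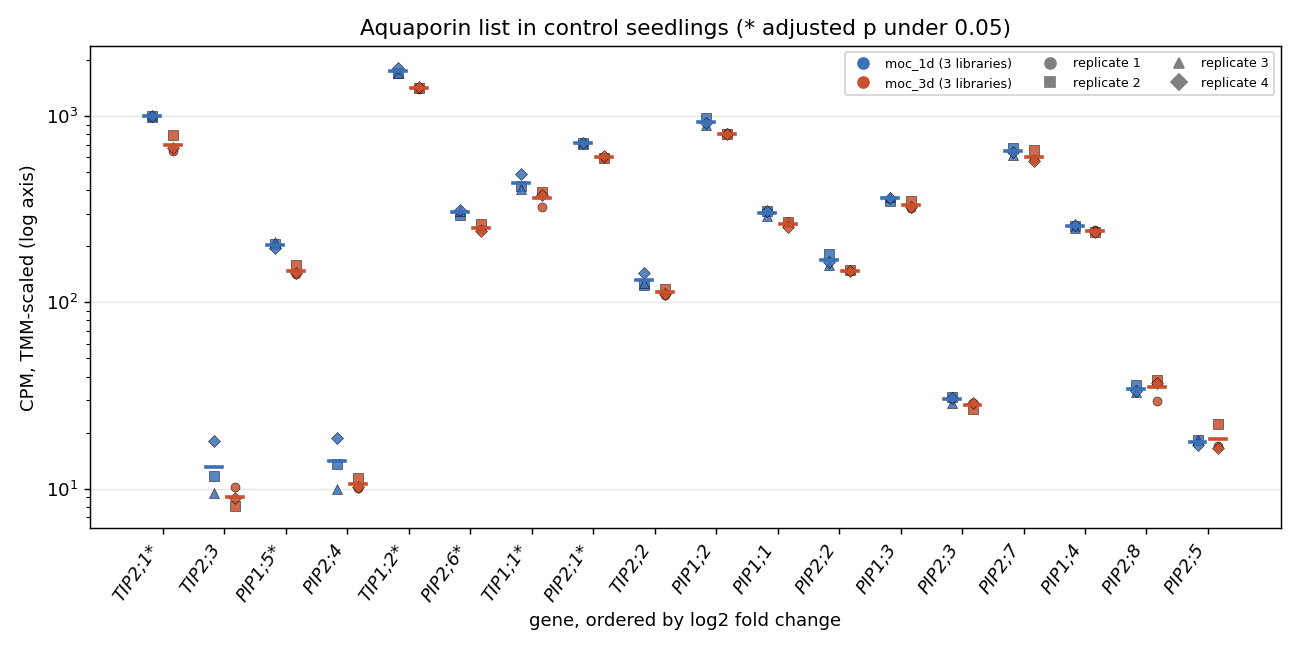
CPM of the 18 genes of the aquaporin list in each control library, on a log axis, with blue for moc_1d, orange for moc_3d, marker shapes for replicate numbers and bars for group means of 3 libraries. The starred genes passed the test, and TIP2;1 lies at 985.5 to 1003.8 CPM at 1 d and 649 to 787 CPM at 3 d.

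Nitrate is reduced to nitrite in the cytosol by nitrate reductase and on to ammonium in the plastid. In roots, that second step draws electrons from ferredoxin, which ferredoxin-NADP reductase recharges with NADPH from the oxidative pentose phosphate pathway. Of 17 genes on the nitrate list, all tested, 3 rose and 1 fell, where 0.527% of all genes rose and 0.315% fell. The list's median log2 fold change was 0.204. RFNR2 (AT1G30510), a root-type ferredoxin-NADP reductase, had 71.4, 74.2 and 61.2 CPM at 1 d and 146, 119 and 107 CPM at 3 d. The 3 d libraries all stood above the 1 d libraries. RFNR2 rose by 0.83 ± 0.09 (adjusted p = 1.17e-06), the smallest p of the comparison. FD3 (AT2G27510), a ferredoxin of non-photosynthetic plastids, rose by 0.51 ± 0.07 (adjusted p = 6.84e-06), from 152, 151 and 138 CPM to 216, 222 and 193 CPM. Both kept their call with any 1 control library left out. With the identical library as moc_1d, or under both labels, RFNR2 lost its call (adjusted p = 0.505 and 0.538) and FD3 kept it.

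NRT3.1, the partner protein of high-affinity nitrate transporters, rose by 0.39 ± 0.10 (adjusted p = 0.0399), from 43.4, 36.9 and 52.0 CPM to 54.3, 56.6 and 60.2 CPM. The call ended in 5 leave-outs, without moc_1d replicates 2 or 3 (adjusted p = 0.171 and 0.422) or without moc_3d replicates 1, 2 or 4 (0.0748, 0.0878 and 0.195). NIA2 (AT1G37130), the main nitrate reductase, fell by 0.35 ± 0.07 on the log2 scale (adjusted p = 0.00135), from 369, 374 and 392 CPM to 312, 295 and 285 CPM. Its call held in each leave-out. NIA1, the second nitrate reductase, was also below in each 3 d library, at -0.24 (adjusted p = 0.186). The other members without a call lay between -0.24 and 1.77. The value of 1.77 belongs to the transporter NRT2.1, at 5.67, 0.969 and 7.50 CPM at 3 d against 2.102, 0.825 and 0.984 CPM at 1 d (adjusted p = 0.176), where 1 library of 3 d overlaps with 1 d.

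Related genes were named after their values were seen. The transaldolase TRA2 (AT5G13420), of the pentose phosphate pathway, rose by 0.46 ± 0.08 (adjusted p = 0.000332), from 101, 105 and 107 CPM to 167, 135 and 130 CPM. AT5G41670, a dehydrogenase that yields NADPH in the same pathway, rose by 0.47 ± 0.09 (adjusted p = 0.00317), from 63.3 ± 3.1 to 88.0 ± 17 CPM (SD, n = 3 per group). Without moc_3d replicate 1 its call ended (adjusted p = 0.219). GLN1;2 (AT1G66200), a cytosolic glutamine synthetase that fixes ammonium, rose by 0.41 ± 0.06 (adjusted p = 3.44e-05), from 497, 420 and 433 CPM to 595, 611 and 587 CPM. The list of 11 root markers had no member called by edgeR, DESeq2 or limma-voom and 1 lower at an unadjusted p under 0.05. It had a median of -0.0649, and summed levels of 1327 to 1549 CPM at 1 d and 1344 to 1396 CPM at 3 d. These ranges overlap, and whether the share of root tissue differed between the groups was not tested.

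Jasmonate is made from plastid fatty acids by lipoxygenases (LOX), allene oxide synthase and cyclase (AOC) and the reductase OPR3. It acts by removing JAZ repressors, whose own genes rise with the hormone. Of 13 tested synthesis genes (14 listed), 3 rose, and of 16 tested signalling genes (18 listed), 2 rose. None of these 29 genes was called lower, where 0.527% of all genes rose and 0.315% fell. The signalling list was split, with 8 members positive and 8 negative. At an unadjusted p under 0.05, 6 of its members were higher and 2 lower. The lipoxygenase LOX4 (AT1G72520) had 0.525, 1.44 and 0.984 CPM at 1 d and 8.78, 3.18 and 2.46 CPM at 3 d. JAZ7 (AT2G34600) had 1.23, 1.24 and 1.31 CPM at 1 d and 11.7, 5.67 and 4.01 CPM at 3 d. In both genes moc_3d replicate 1 was the highest, and the other 3 d libraries were also above every 1 d library.

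Without moc_3d replicate 1, the JAZ7 call held, while LOX4 lost it (adjusted p = 0.243), as it did without moc_1d replicate 2 (0.0776). LOX4 was one of 11 named calls that held with the identical library as moc_1d. The JAZ7 call ended there (adjusted p = 0.538), as did those of AOC2, OPR3 and JAZ9 (0.511, 0.123 and 0.664). With all 16 columns as labelled, LOX4 and JAZ7 both lost their call (adjusted p = 0.169 and 0.599). AOC2 had 143, 107 and 105 CPM at 3 d against 83.9, 92.3 and 74.3 CPM at 1 d (adjusted p = 0.0462). The AOC2 call ended without moc_3d replicate 1 (adjusted p = 0.148) and without moc_1d replicates 2 or 4 (0.19 and 0.168). OPR3 had 44.6, 30.9 and 32.6 CPM at 3 d against 25.5, 26.9 and 24.8 CPM at 1 d (adjusted p = 0.0462). It lost its call without moc_3d replicate 1 (adjusted p = 0.559) and without any 1 of the 1 d libraries (0.0992 to 0.19). JAZ9 (adjusted p = 0.0487) was called although its groups overlapped, with 24.0, 11.6 and 16.0 CPM at 3 d and 8.14, 11.9 and 8.69 CPM at 1 d. Its call ended without moc_3d replicates 1 or 4 (adjusted p = 0.38 and 0.107) and moc_1d replicates 2 or 4 (0.282 and 0.232). JAZ3, the list's next by p, was at 0.50 ± 0.18 (adjusted p = 0.249).

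The synthesis list's summed level was 450.3, 518.0 and 457.8 CPM at 1 d and 759.2, 501.3 and 545.9 CPM at 3 d. Replicate 1 of 3 d stood apart, and the other 3 d libraries were close to the 1 d range. The list's median log2 fold change was 0.414 over all 6 libraries and 0.165 without that library. The signalling list's median was 0.0965, or 0.0153 without it. Of 9 tested jasmonate target genes (10 listed), edgeR called 0, DESeq2 1 and limma-voom 0. Their median was 0.485, or 0.0874 without moc_3d replicate 1. Touch and calcium genes, known to respond quickly to handling or wounding, were summed at 231.7, 256.6 and 208.4 CPM at 1 d and 593.1, 362.4 and 305.9 CPM at 3 d. Replicate 1 of 3 d was again the highest, but here the other 3 d libraries also lay above the 1 d range. None of the 10 tested (of 12 listed) was called by edgeR, 6 were higher at an unadjusted p under 0.05, and DESeq2 called 1 and limma-voom 0. All 10 had positive values, beside 9135 of all 18419 genes. The median was 0.736, or 0.491 without moc_3d replicate 1. The calmodulin-like TCH3 had 187, 121 and 120 CPM at 3 d and 77.9, 77.8 and 66.4 CPM at 1 d (log2 fold change 0.93 ± 0.21, adjusted p = 0.0916). TCH2 was at 0.74 ± 0.22 (adjusted p = 0.229), and WRKY53, a stress transcription factor, at 0.73 ± 0.23 (adjusted p = 0.152). The 3 genes, named for the smallest p of the list, were higher in each 3 d library than in any of 1 d. Over the list this held for 5 of the 10 tested, beside 8.03% of all genes. In a fit of the controls alone without moc_3d replicate 1, chosen after the data were seen, 2 members of the touch list were called.

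**Figure D3:**
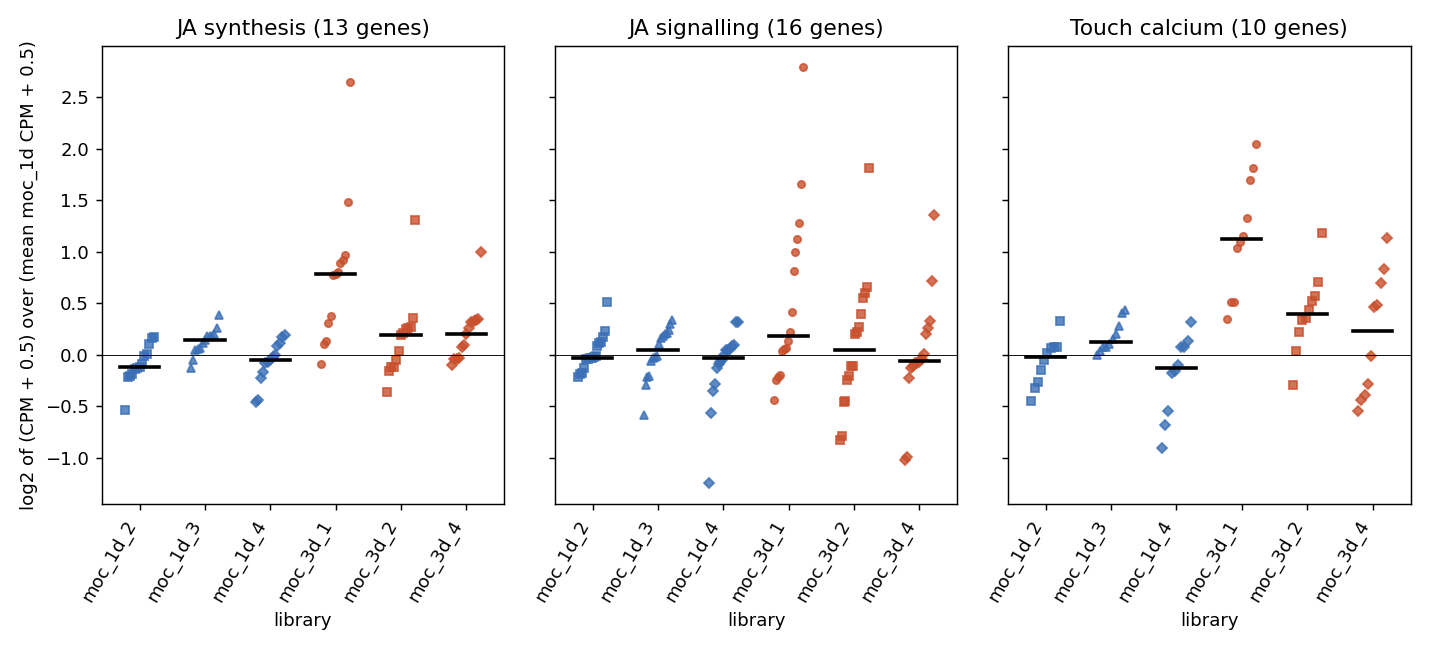
Log2 ratio of CPM in each control library to the mean of the 3 moc_1d libraries, with 0.5 CPM added to both, for the tested genes of the jasmonate synthesis, jasmonate signalling and touch lists. Points are genes and bars are medians, which reach 0.784 and 1.12 in moc_3d_1 for synthesis and touch, against 0.194 to 0.205 and 0.225 to 0.394 in the other moc_3d libraries.

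The JAZ7 window is shown because JAZ7 had the largest rise of the called genes. It is chr2:14572730-14573029 of TAIR10.1 on the plus strand, just before the annotated start, with the G-box core CACGTG in capitals, a sequence that MYC factors of jasmonate signalling are known to bind.
JAZ7: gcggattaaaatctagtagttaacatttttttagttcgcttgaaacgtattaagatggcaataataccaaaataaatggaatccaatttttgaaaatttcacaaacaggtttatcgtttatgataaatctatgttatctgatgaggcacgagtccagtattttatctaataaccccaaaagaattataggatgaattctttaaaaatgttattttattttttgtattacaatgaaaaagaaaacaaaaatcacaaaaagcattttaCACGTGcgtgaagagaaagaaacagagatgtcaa
CACGTG was found in 10 of 96 windows of genes that rose (10.4%), 1 of 53 of genes that fell (1.89%) and 7.96% of all 18244. In the signalling list 3 of 16 windows held it. The cold and dehydration element core GCCGAC was in 6 of 96 and 0 of 53, beside 3.43% of all windows. The evening element AAAATATCT was in 4 and 1 (2.98% of all), and the GCC box GCCGCC in 2 and 3 (2.35% of all).

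Sugar starvation genes rise in darkness or when sugar is short, under the SnRK1 kinase and S1 bZIP factors. Of 21 such genes, all tested, 4 rose and none fell, where 0.527% of all genes rose. The list's median was -0.0145, so the rise was limited to part of the list. TPS8, related to trehalose phosphate synthases, rose by 0.54 ± 0.09 (adjusted p = 0.000168) from 38.0, 37.5 and 35.3 CPM to 50.3, 54.8 and 56.4 CPM. BT2, a BTB/TAZ adaptor protein repressed by sugar, rose by 0.45 ± 0.08 (adjusted p = 0.000706) from 114, 134 and 132 CPM to 155, 182 and 180 CPM. SEN5, a dark-induced gene, rose by 0.31 ± 0.06 (adjusted p = 0.00135) from 656, 721 and 676 CPM to 790, 875 and 879 CPM. In these 3 genes the groups were apart and moc_3d replicate 1 was the lowest of the 3 d libraries.

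TPS11, of the same family as TPS8, rose by 0.45 ± 0.10 (adjusted p = 0.0136). The call ended without moc_1d replicates 2 or 4 (adjusted p = 0.13 and 0.069) or moc_3d replicate 4 (0.0691). BT5, a relative of BT2 named after its values were seen, rose by 0.61 ± 0.10 (adjusted p = 8.92e-05) from 47.9 ± 6.2 to 73.1 ± 5.5 CPM (SD, n = 3 per group). The dark-inducible DIN1 and DIN10 did not pass, at -0.34 and -0.10 (adjusted p = 0.487 and 0.781). The DIN1 values at 3 d were below all those at 1 d.

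By the rule for named genes, the largest rise among genes of at least 5 CPM on average was that of the amino acid exporter UMAMIT14, at 1.53 ± 0.28 (adjusted p = 0.00455). It had 4.47, 7.52 and 2.62 CPM at 1 d and 20.7, 10.9 and 12.8 CPM at 3 d. Without moc_1d replicate 2 the call ended (adjusted p = 0.0687). The TIR-NBS resistance gene AT1G66090 rose by 1.46 ± 0.27 (adjusted p = 0.000706), from 2.63, 3.81 and 2.30 CPM to 6.95, 9.41 and 8.02 CPM. The alpha/beta-hydrolase AT1G02660 rose by 1.41 ± 0.18 (adjusted p = 1.87e-06), from 6.22, 8.76 and 8.20 CPM to 26.3, 14.5 and 20.7 CPM. Both held in each leave-out. The groups of all 3 genes were apart, as the rule that named them required.

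The regulators SZF1 and WRKY70 were among the other large rises. SZF1, a zinc-finger protein, stood at 84.2, 45.2 and 43.5 CPM at 3 d and 26.0, 23.7 and 21.8 CPM at 1 d (1.24 ± 0.24, adjusted p = 0.0454). Its call ended without any 1 of the 1 d libraries (adjusted p = 0.148 to 0.168). WRKY70, a transcription factor of salicylic acid signalling, stood at 81.6, 50.9 and 42.7 CPM against 23.0, 29.9 and 21.5 CPM (1.21 ± 0.22, adjusted p = 0.0341). That call ended without moc_1d replicates 2 or 4 (adjusted p = 0.166 and 0.137) or moc_3d replicate 2 (0.054). In both genes moc_3d replicate 1 was the highest. Without it both kept their call at smaller log2 fold changes of 0.883 for SZF1 and 0.903 for WRKY70 (adjusted p = 2.39e-05 for each). WRKY70 was the 1 called gene of 18 tested on the salicylic acid list (20 listed), where 0.842% of all genes were called. The list had a median of 0.136. PR1 and PR2, classic targets of that hormone, were high in 1 library of 1 d, at 61.5 and 12.1 CPM in moc_1d replicate 3 against 0.525 to 0.82 CPM in replicates 2 and 4.

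The 2-oxoglutarate oxygenase family gene AT1G52820 rose by 1.16 ± 0.26 (adjusted p = 0.0107) and lost its call without moc_1d replicates 2 or 3 (adjusted p = 0.0919 and 0.184). The metal-binding family gene AT5G52750 rose by 1.11 ± 0.26 (adjusted p = 0.0151). It lost its call without moc_1d replicates 2 or 4 (adjusted p = 0.204 and 0.0523) or moc_3d replicates 1 or 4 (0.0744 and 0.164). GSTF12, a glutathione transferase needed to store anthocyanins, was the 1 called gene of 17 tested on the flavonoid list (20 listed). Of all genes, 0.842% were called. GSTF12 stood at 7.50, 4.01 and 5.69 CPM against 1.93, 2.68 and 1.64 CPM (1.41 ± 0.36, adjusted p = 0.0345). Its call held only without moc_3d replicate 2 among the leave-outs (adjusted p = 0.0535 to 0.266 in the other 5).

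SAUR genes encode small auxin-regulated proteins, several of which promote cell expansion, and expansins loosen cell walls. SAUR6 (AT2G21210) was among the largest falls, at 125, 119 and 119 CPM at 1 d and 53.6, 48.0 and 61.1 CPM at 3 d. The groups were far apart relative to their spread, with a log2 fold change of -1.16 ± 0.15 (adjusted p = 0.00223) that held in each leave-out. EXPA1 (AT1G69530) had 186, 171 and 166 CPM at 1 d and 111, 114 and 143 CPM at 3 d, and fell by 0.50 ± 0.08 (adjusted p = 0.000143). It was the 1 called gene of 10 expansins tested, whose median was -0.157, where 0.842% of all genes were called. SAUR6 overlaps a counted gene on the same strand.

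Other SAUR genes, named after their values were seen, did not all go the same way. SAUR16 fell by 0.68 ± 0.15 (adjusted p = 0.0272) from 57.5 ± 5.2 to 35.7 ± 6.6 CPM (SD, n = 3 per group). Its call ended without any 1 of the 1 d libraries (adjusted p = 0.0621 to 0.104) or without moc_3d replicates 1 or 2 (0.189 and 0.068). SAUR56 had 3.24, 2.37 and 1.48 CPM at 1 d and 0.183, 0.692 and 0.776 CPM at 3 d, the first of these below the level of 3 counts, with an adjusted p of 0.0286 that held only without moc_1d replicate 4 (0.0566 to 0.256 in the other 5 leave-outs). SAUR66 rose by 0.54 ± 0.12 (adjusted p = 0.0143). It lost its call without moc_1d replicate 2 (adjusted p = 0.243) or moc_3d replicate 2 (0.105).

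Among the other large falls, the glycine-rich protein gene AT2G05540 had 155, 160 and 162 CPM at 1 d and 60.4, 90.5 and 84.5 CPM at 3 d. It fell by 1.01 ± 0.11 (adjusted p = 3.44e-05). The aspartyl protease AT5G10770 fell by 0.99 ± 0.17 (adjusted p = 0.000442) from 19.5 ± 1.5 to 9.72 ± 2.1 CPM (SD, n = 3 per group). AT1G79160 fell by 0.81 ± 0.15 (adjusted p = 0.00114) from 22.0 ± 3.9 to 12.3 ± 1.8 CPM (SD, n = 3 per group). These 3 calls held in each leave-out. No library crossed between the groups, which the rule that named these genes required.

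The rest of the falls named by the rule were less stable. The defensin-like gene AT3G59930 (-1.28 ± 0.30, adjusted p = 0.0341) lost its call without moc_1d replicates 2 or 4 (adjusted p = 0.174 and 0.127) or moc_3d replicates 1 or 2 (0.207 and 0.174). BDG1, an alpha/beta-hydrolase needed for an intact cuticle, was at -0.74 ± 0.17 (adjusted p = 0.0107) and lost it without moc_1d replicates 2 or 3 (adjusted p = 0.0899 and 0.0729) or moc_3d replicate 2 (0.1). The DNA polymerase REV1 (-0.72 ± 0.17, adjusted p = 0.0201) was called in the leave-outs only without moc_1d replicate 3 (adjusted p = 0.0501 to 0.133 in the other 5). AT5G03120 (-0.84 ± 0.19, adjusted p = 0.011) lost its call without moc_1d replicates 3 or 4 (adjusted p = 0.0714 and 0.0828) or moc_3d replicate 4 (0.188). AT5G57760 (-0.75 ± 0.19, adjusted p = 0.0385) lost it without moc_1d replicates 2 or 4 (adjusted p = 0.131 and 0.217) or moc_3d replicates 1 or 4 (0.202 and 0.145). All 5 were lower in each 3 d library than in any 1 d library, as the rule that named them required.

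Counts from chloroplast genes made up 1.83%, 1.74% and 1.59% of moc_1d replicates 2, 3 and 4, and 1.08%, 1.33% and 1.497% of moc_3d replicates 1, 2 and 4. The groups did not overlap. Of 86 chloroplast-encoded genes tested (88 counted), 4 fell and none rose, where 0.315% of all genes fell. Negative values were found for 76, beside 9284 of all 18419 genes. The median log2 fold change was -0.324. ATCG00740 had 859, 869 and 857 CPM at 1 d and 609, 730 and 696 CPM at 3 d (-0.34 ± 0.07, adjusted p = 0.00179). Its call ended without moc_3d replicate 1 (adjusted p = 0.0708). ATCG00330 was at -0.93 ± 0.23 (adjusted p = 0.0286), which ended without any 1 library other than moc_1d replicate 2 (adjusted p = 0.0586 to 0.246). Chloroplast transcripts mostly lack long poly(A) tails, so a 3′ method samples them in part.

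Of 21 nuclear photosynthesis genes tested, none was called by edgeR, DESeq2 or limma-voom, and 3 had an unadjusted p under 0.05. The median was -0.00831, and the values ran from -0.108 to 0.154. Their summed level was 138200 to 143000 CPM at 1 d and 140500 to 144700 CPM at 3 d. GLK2 (AT5G44190), a transcription factor of chloroplast development named after its values were seen, fell by 0.41 ± 0.08 (adjusted p = 0.00104), from 113, 127 and 117 CPM to 84.2, 97.7 and 86.7 CPM. The call held in each leave-out. Cell cycle genes (16 tested) and suberin genes (10 tested) had no member called by the same 3 tools, at medians of 0.0627 and 0.0667. At an unadjusted p under 0.05 there were 0 and 3.

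In all, 9 of the 30 gene lists had a called member and 21 had none. The series title concerns freezing stress, and of 16 cold-regulated genes none was called by edgeR, 9 were higher at an unadjusted p under 0.05, and DESeq2 called 1 and limma-voom 0. Of these 16, 13 had positive values, beside 9135 of all 18419 genes. Higher in each 3 d library than in any of 1 d were 8, as for 8.03% of all genes. The median was 0.354, or 0.251 without moc_3d replicate 1. KIN1, a cold- and abscisic acid-induced gene, had 74.3, 61.4 and 70.4 CPM at 3 d against 32.9, 32.2 and 44.8 CPM at 1 d, at an adjusted p of 0.187. COR15A had 196, 110 and 116 CPM against 75.4, 97.5 and 82.5 CPM (adjusted p = 0.492). ADH1, the alcohol dehydrogenase that acts on ethanol, overlapped between groups, with 72.3, 33.6 and 58.7 CPM at 3 d and 50.5, 43.5 and 40.0 CPM at 1 d (0.27 ± 0.39, adjusted p = 0.902). Phosphate starvation genes had a median of -0.206 and wax genes of -0.195, with none called by the 3 tools and, at an unadjusted p under 0.05, 1 phosphate gene higher and 5 wax genes lower.

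**Figure D4:**
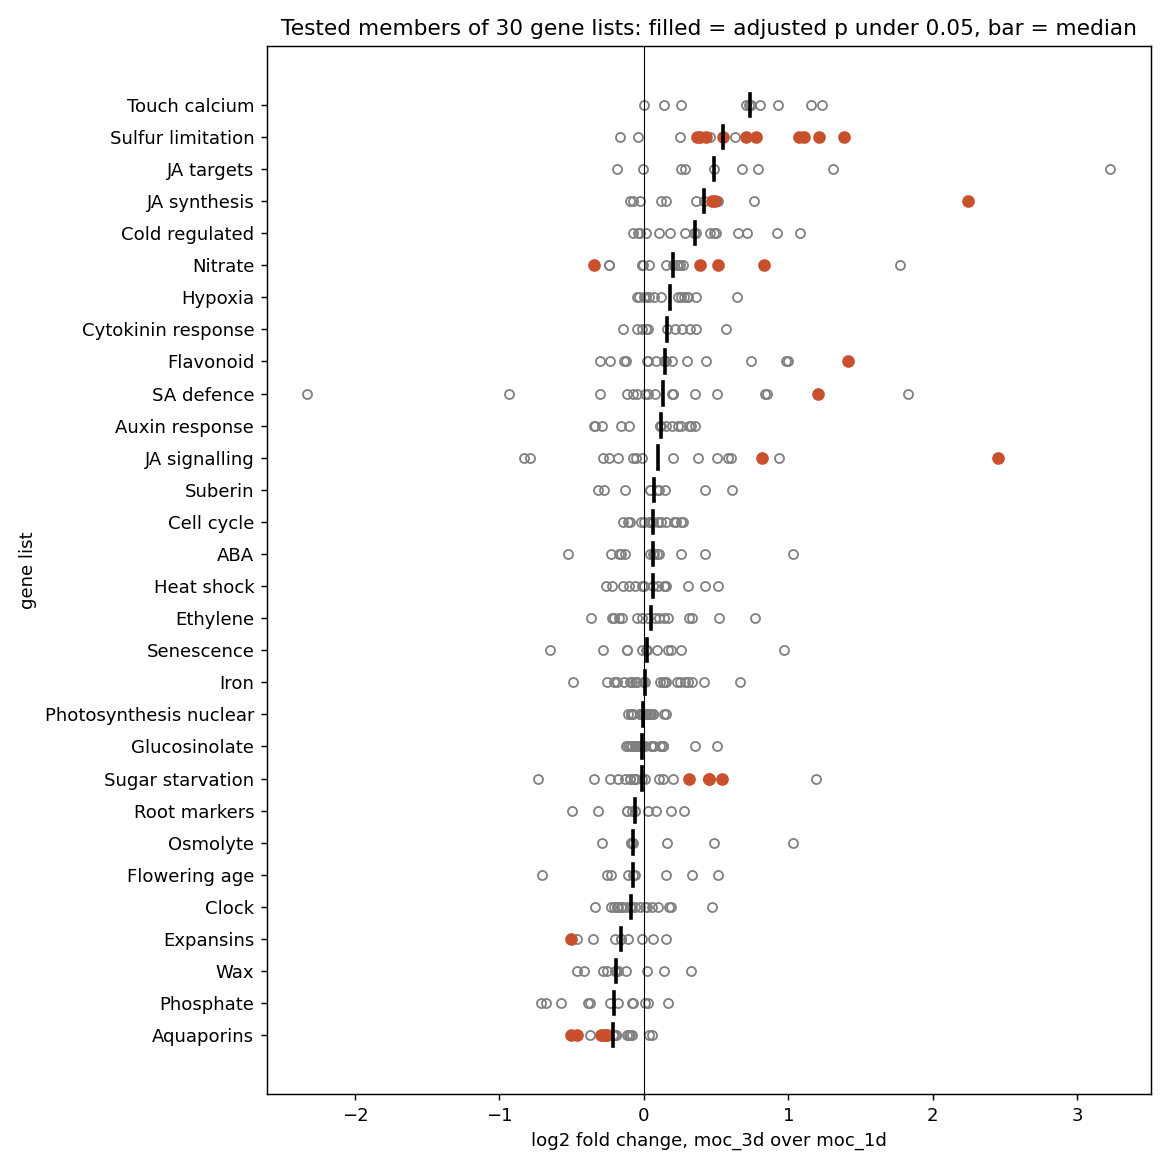
Log2 fold change of 3 d over 1 d controls for each tested member of the 30 gene lists, ordered by list median (black bars). Filled points are members with adjusted p under 0.05, which are 10 of 15 for sulfur limitation and 6 of 18 for aquaporins.

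The ethanol groups went through the same periods from the same ages, in libraries that share no sample with the controls. In EtOH_3d against EtOH_1d (4 libraries each), 185 genes were called, 1% of those tested. Of the 97 genes that rose in controls, 89 had a positive value with ethanol, and of the 58 that fell, 50 had a negative one, where 49.8% of all tested genes were positive. In size the ethanol values were smaller. The median log2 fold change went from 0.574 in controls to 0.290 with ethanol for the genes higher in controls, and from -0.469 to -0.17 for those lower. These genes were selected on the control values. Called in both, in the same direction, were 43 genes, 27.7% of the control calls and 23.2% of the ethanol calls, 29 higher and 14 lower, and none was called in opposite directions.

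JAZ7 was among the genes called in both, at 6.32, 14.0, 8.51 and 10.8 CPM in EtOH_3d against 1.68, 1.27, 1.90 and 1.09 CPM in EtOH_1d (log2 fold change 2.67 ± 0.30, adjusted p = 3.25e-08). The 4 sugar starvation genes TPS8, BT2, SEN5 and TPS11 also were, with ethanol log2 fold changes of 0.54, 0.77, 0.51 and 0.41. Of the 21 genes on that list, 7 were called higher with ethanol, beside 0.635% of all genes. With ethanol 16 were positive and the median was 0.298, against 10 and -0.0145 in controls. EXPA1 (-0.49), SAUR6 (-0.77) and GLK2 (-0.40) fell in both.

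With ethanol 1 of the 15 members of the sulfur limitation list was called, SHM7 (0.57 ± 0.15, adjusted p = 0.041), and the list median was 0.179. The test of the difference between the changes called 8 of all genes (0.0434%, with 0.0163% higher and 0.0271% lower in controls). It called 1 member of the sulfur list, LSU1. This gene had 14.9, 14.8, 13.6 and 9.46 CPM in EtOH_1d and 10.4, 13.4, 8.82 and 11.2 CPM in EtOH_3d. For the other members of the sulfur list the adjusted p of the difference was above 0.05, so they were not shown to differ. For LSU3 (0.44 ± 0.18 with ethanol) it was 0.385 and for SDI2 (0.18 ± 0.11) 0.27. Of the aquaporins, 4 were called lower with ethanol, beside 0.369% of all genes, and none passed the test of the difference. Of the sugar starvation genes, 1 passed it. RFNR2, at 0.18 ± 0.08 with ethanol, passed that test (adjusted p = 0.0201), and FD3, at 0.10 ± 0.06, did not (adjusted p = 0.0568). Without moc_3d replicate 1 the test called 0 genes as higher in controls, so LSU1 and RFNR2 both lost that call.

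**Figure D5:**
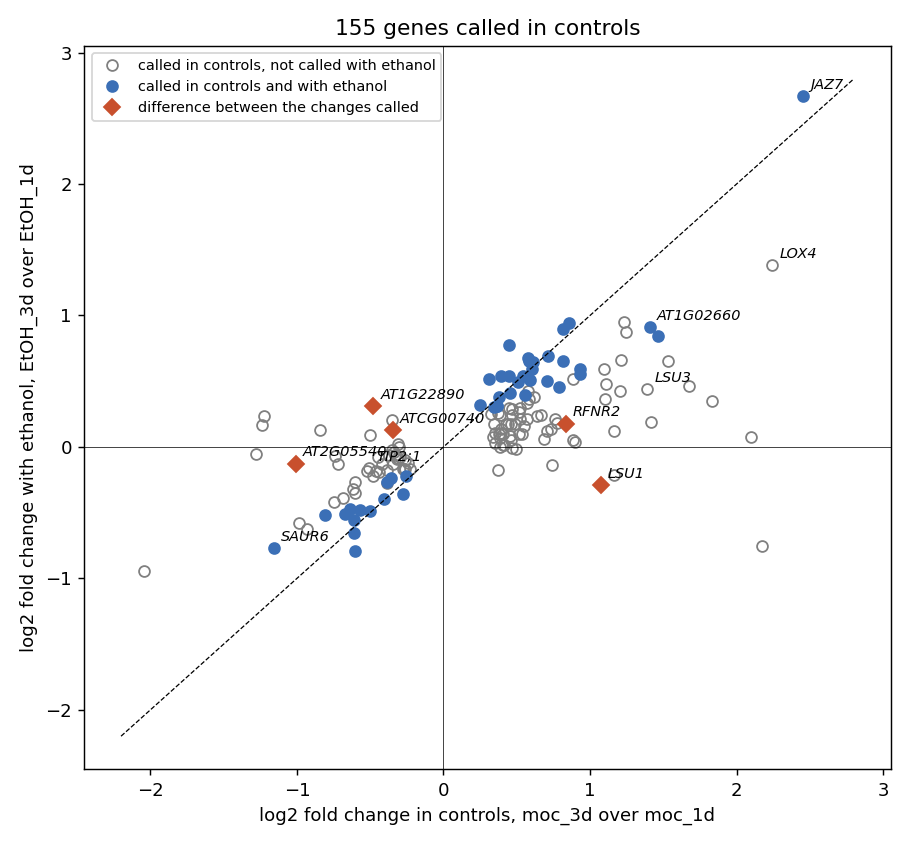
Log2 fold change of 3 d over 1 d with ethanol (vertical) against that in controls (horizontal) for the 155 genes called in controls, with the dashed line marking equal change. Blue points were called in both, 43 in all, and the 5 orange diamonds are genes whose changes differed by the test of the difference.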

How the data were processed

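Whole-seedling RNA was made into Lasy-Seq libraries, a 3′ RNA-seq method, per the labels' protocols. Tools listed without versions in the submitters' processing notes are featureCounts, HISAT2, Trimmomatic, bcl2fastq and DESeq2, with the build TAIR10. The authors deposited raw read counts per gene, and a second table of processed values was not used here. The sources used here do not state how the counting treated strand.

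The 14 libraries left after removing 2 identical columns were fitted together with edgeR 4.0.16 (R 4.3.3), using its low-count filter, TMM scaling and the quasi-likelihood test, which pools the spread over the 4 groups. Of 27416 genes, 18419 were tested. P-values were adjusted over all of them by Benjamini-Hochberg, with a threshold of 0.05. The common biological coefficient of variation was 9.11%. The same fit gave the ethanol change and the difference between changes. A count of 3 equals 0.262 to 0.555 CPM in the control libraries, which limits low genes. The alternatives were DESeq2 1.42.0, limma-voom (3.58.1), other scaling, no filter, other uses of the identical columns, a replicate block and each library left out. The code was tested on simulated data.

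Members and gene lists were chosen with earlier results of these data known. Named were the 10 largest rises and 10 largest falls among called genes of at least 5 CPM without overlap between groups, up to 5 called members of each list, the 3 smallest p of the jasmonate synthesis, jasmonate signalling and touch lists, and ADH1. Other genes were named after their values were seen. Positions and the 300-base windows before annotated starts come from the RefSeq annotation of TAIR10.1. Of the 155 called genes, 30 overlap another counted gene, 24 of them on the opposite strand. Besides the APR genes and SDI2, the latter include TIP2;1, SEN5, BT5, GSTF12, BDG1, AT1G52820 and AT5G57760. The uncalled TCH2, WRKY53, ADH1 and SULTR4;2 also overlap a gene on the opposite strand. In a BLAST 2.17.0 search of transcript ends, none of 67 named genes shared 100 or more bases at 95% identity or more with another gene.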

Additional observations from a re-analysis of the deposited data

Results flagged for a closer look

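For 5 of the 155 genes called in controls, the change from 1 d to 3 d differed from that with ethanol by edgeR's test of the difference, which called 8 of 18419 genes (0.0434%). AT1G22890, a gene without annotated function, fell by 0.48 in controls and was at 0.31 with ethanol (difference -0.792, adjusted p = 0.00441). ATCG00740, chloroplast-encoded, was at -0.345 and 0.129 (difference -0.474, adjusted p = 0.0129). AT2G05540, a glycine-rich protein gene, was at -1.01 and -0.127 (difference -0.883, adjusted p = 0.0201). RFNR2, the root-type ferredoxin-NADP reductase, was at 0.834 and 0.177 (difference 0.657, adjusted p = 0.0201). LSU1, of the low-sulfur response, was at 1.07 and -0.291 (difference 1.36, adjusted p = 0.0287). The 8 calls became 2 without moc_3d replicate 1 and 1 without moc_1d replicate 4 or EtOH_3d replicate 3. In each of these leave-outs 0 genes were called as higher in controls, so RFNR2 and LSU1 lost their call.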

How the results depend on the processing

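The control comparison called 155 genes, and 283 without the low-count filter, 5 with all 16 columns as labelled and 19 with the identical column as moc_1d. Leaving out 1 control library gave 67 to 134. DESeq2 gave 150, limma-voom 132, the other scaling 154 and the controls fitted alone 189. The ethanol comparison went from 185 to 313 without the filter, and to 128 to 158 with 1 library left out. The 8 differences between changes became 16 with DESeq2, 5 with limma-voom, 47 without the filter, 0 with 16 columns and 4 with the identical column as moc_1d, and 1 to 23 with 1 library left out. The cause of these moves was not tested, other than that the settings change the genes or samples used. Of 59 named calls, 26 held in each of the 6 control leave-outs, 37 without moc_3d replicate 1, and 3 in each of the 16 alternatives.

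Sign changes were seen in 10 of 1156 gene and setting pairs, all in genes never called. SULTR1;1 was at 0.148 with the identical column as moc_3d, 0.0943 with the replicate block, 0.113 in controls alone without moc_3d replicate 1, and -0.551 to 0.18 over the leave-outs, positive without moc_1d replicate 4 (0.176) and moc_3d replicates 1 (0.108) and 2. LSU4 was at -0.136 with the block and -0.106 to 0.571 over the leave-outs, negative without moc_1d replicate 3 (-0.0417) and moc_3d replicate 4. BGLU28 was at -0.395 to 0.0558 over the leave-outs, positive without moc_3d replicate 2. With the replicate number as a block, 146 genes were called in controls, 117 of the 155 among them. Same-numbered libraries correlated at -0.0795 to 0.0593 in their deviations from group means, so the numbers were not taken as pairs.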
